A study of Mus musculus with 27 samples.

Results

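The genes described here are 37 mouse genes of amino acid supply. They comprise the transcription factor gene Atf4 with its stress-response partners, enzymes that make serine, asparagine, proline and aspartate, the folate-linked one-carbon enzymes, amino acid transporters, cytosolic aminoacyl-tRNA synthetases and 2 polyamine enzymes. They were chosen by name, without a threshold on measured values, but with earlier results of these data known. All 37 were found among the 35604 genes of the deposited table, and 37 of 37 passed the filter on low values (3 or more libraries with 1 TPM or more, the length-scaled transcript unit of the table), as did 12147 genes in all.

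Polyadenylated RNA was sequenced from primary B cells of the spleen of wild-type mice. The cells were either naive and uncultured, or cultured for 6 h or 24 h with an anti-CD40 antibody (clone HM40-3, 1 µg/mL) that stands in for CD40 ligand of helper T cells. At each time the cultures held both IL-4 (12.5 ng/mL) and IL-21 (50 ng/mL), IL-21 without IL-4, IL-4 without IL-21, or anti-CD40 alone, so that all cultured groups share anti-CD40 and an RPMI medium with serum, L-glutamine and β-mercaptoethanol. The labels give 9 groups of 3 libraries, and the series addresses what IL-21 does within the B cell itself. No label says whether replicates came from separate animals, so the p-values measure the spread between these libraries, which may be technical.

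ATF4 is the main transcription factor of the integrated stress response, in which phosphorylation of the initiation factor eIF2 slows general translation but favours that of ATF4 mRNA. The kinase GCN2 starts this response when uncharged tRNA accumulates, and mTORC1 also raises ATF4 in growing cells. Together with C/EBP partners ATF4 binds composite C/EBP-ATF elements and induces genes for amino acid uptake, serine synthesis and tRNA charging, as well as feedback genes such as Trib3 and Chac1. Because ATF4 is set largely at translation, the Atf4 mRNA level is not a measure of its activity. Lymphocytes that leave rest import amino acids and pass serine-derived one-carbon units through mitochondrial SHMT2 and MTHFD2 towards purine and thymidylate synthesis.

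The core letters of the C/EBP-ATF element, TGATGNAA, were searched on both strands of the RefSeq promoter windows of build GRCm38.p6, each with 250 bases before and 50 bases after a gene's start. A window was found for 31 of the 37 genes, and 10 of these (32.3%) held the letters, against 4.51% of 27025 genes with a window. The 10 genes were Trib3, Chac1, Asns, Pycr1, Got1, Slc1a4, Slc7a11, Aars, Gars and Yars. Genes known as ATF4 targets are part of the list by its choice, so the share describes the list and a match is neither a binding site nor a cause. The windows of the 4 matching genes whose group means spanned the widest range are shown 5′ to 3′ on the gene's own strand, with the matching letters in capitals.
Aars (alanyl-tRNA synthetase, chr8:111033592-111033891, plus strand): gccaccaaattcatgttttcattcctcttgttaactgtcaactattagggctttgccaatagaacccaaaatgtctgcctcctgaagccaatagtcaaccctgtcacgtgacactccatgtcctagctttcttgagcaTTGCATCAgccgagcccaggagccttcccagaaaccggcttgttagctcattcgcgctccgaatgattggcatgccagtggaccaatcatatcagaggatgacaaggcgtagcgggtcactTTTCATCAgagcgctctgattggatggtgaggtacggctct
Got1 (cytosolic aspartate aminotransferase, chr19:43524556-43524855, minus strand): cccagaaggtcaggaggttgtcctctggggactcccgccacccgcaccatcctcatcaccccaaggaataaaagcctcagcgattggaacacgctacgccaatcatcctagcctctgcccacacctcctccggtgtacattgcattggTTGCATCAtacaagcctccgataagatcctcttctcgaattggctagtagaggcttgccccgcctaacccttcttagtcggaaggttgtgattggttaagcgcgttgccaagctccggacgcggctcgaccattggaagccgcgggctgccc
Chac1 (a glutathione-degrading enzyme, chr2:119350992-119351291, plus strand): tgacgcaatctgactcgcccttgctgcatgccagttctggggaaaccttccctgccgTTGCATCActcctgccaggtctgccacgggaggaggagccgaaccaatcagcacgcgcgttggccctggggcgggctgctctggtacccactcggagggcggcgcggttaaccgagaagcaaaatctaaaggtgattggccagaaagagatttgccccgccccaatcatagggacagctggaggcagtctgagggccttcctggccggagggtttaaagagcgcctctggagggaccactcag
Trib3 (a pseudokinase that restrains ATF4, chr2:152344011-152344310, minus strand): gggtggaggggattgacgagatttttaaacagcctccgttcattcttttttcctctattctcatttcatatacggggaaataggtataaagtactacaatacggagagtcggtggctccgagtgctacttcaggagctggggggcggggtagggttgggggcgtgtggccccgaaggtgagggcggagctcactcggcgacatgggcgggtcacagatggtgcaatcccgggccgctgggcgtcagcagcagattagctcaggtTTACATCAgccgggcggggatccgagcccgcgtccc
In Aars the capitals stand at bases 139 to 146 and 260 to 267 of the window, in Got1 at 149 to 156, in Chac1 at 58 to 65 and in Trib3 at 265 to 272. No match in a window says only that these letters are not in it.

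The deposited values are TPM, a unit already scaled by transcript length and library, so sequencing depth is unknown and low values carry an error that cannot be derived. Listed values summed to 766384 to 825365 per library. B cell markers were present in every library, with summed levels of 443 to 4349 TPM, while Cd3g, Cd4, Cd28, Csf1r and all 5 neutrophil markers stayed below 1 TPM. Erythroid markers summed to 979 to 1769 TPM in naive libraries, against 10.2 to 235 TPM in cultured ones, and macrophage and monocyte markers to 56.1 to 76.2 TPM in naive libraries, against 0.624 to 10.2 TPM in cultured ones. The T cell sum at 24 h was 59.7 to 70.4 TPM where both cytokines were present and 13.7 to 46.5 TPM with IL-4. Most of these sums came from the other T cell markers, Cd3d, Cd3e, Cd8a and Thy1. A pair of libraries is treated below as standing apart from their groups. Mitochondrial transcripts took 5.50% of the listed TPM in naive replicate 1, against 12.7% and 13.5% in the other two, and 7.89% in replicate 1 of the 24 h group with IL-4, against 11.6% and 10.97%. At 6 h replicate 3 was also low, at 6.91% with IL-4, against 10.2% and 10.6%, and at 7.27% with IL-21, against 10.9% and 10.2%. Replicate 1 was the highest library for 28 of the 37 genes in naive cells and for 33 with IL-4 at 24 h. Replicate 2 was the highest for 29 with IL-21 at 24 h. Leaving out such a library lowers the group mean of most of these genes. In bulk RNA, fewer cells of a kind and less RNA per cell cannot be told apart.

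Differences below are log2 differences of log2(TPM + 1) ± SE between groups of 3 libraries, from a limma fit to all 27 libraries. P-values were adjusted over the 12147 tested genes by the Benjamini-Hochberg method, and a gene is said to rise or fall where its adjusted p was below 0.05. The scale understates the changes of genes with low TPM. Medians over a set of genes are also given minus the median of all tested genes, because that median moved by up to 0.38 in a comparison under the scaling used. Comparisons with a common group share its libraries, and their values are set side by side without any count of overlap.

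Anti-CD40 for 6 h was accompanied by higher levels of most of these genes than in naive cells. Of the 37 genes, 22 rose and 1 fell, where 16.6% of all tested genes rose and 13.3% fell. The median difference was 1.23, which is 1.17 above the median of all genes. All 5 one-carbon enzymes, all 7 tRNA synthetases and both polyamine enzymes rose, as did 3 of 7 regulators, 2 of 4 asparagine, proline and aspartate enzymes, 1 of 3 serine synthesis enzymes and 2 of 9 transporters. After 24 h, 14 rose and 1 fell, where 18.9% of all tested genes rose and 7.85% fell, and the median of 0.50 was 0.25 above that of all genes. Without naive replicate 2, without naive replicate 3 or without anti-CD40 replicate 3, 8 rose and 1 fell at 24 h. In this order, 1359 of 12059, 1509 of 12055 and 1391 of 12085 tested genes then rose, against 2299 of 12147 as reported. The numbers of all genes that fell were 753, 744 and 899, against 953 as reported. Without naive replicate 1, which stands apart, 23 rose and 1 fell at 6 h, where 19.5% of all tested genes rose and 9.93% fell, and 16 rose and 1 fell at 24 h, where 24.5% rose and 6.27% fell. In fits of the compared groups only, the calls of Nars and Yars at 6 h and of Atf4, Phgdh, Mthfd1l and Nars at 24 h ended (limma adjusted p 0.0555 to 0.0958). Erythroid and macrophage transcripts were higher in naive libraries, as given above, and their part was not tested. Culture and stimulation cannot be told apart in these comparisons, because naive cells were not cultured.

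IL-21 added to anti-CD40 was accompanied by 5 higher and 0 lower genes at 6 h, where 7.43% of all tested genes rose and 4.68% fell, and by 17 higher and 0 lower genes at 24 h, where 17.8% rose and 6.33% fell. The medians were 0.31 and 0.62, which are 0.21 and 0.39 above those of all genes. At 24 h all 5 one-carbon enzymes, both polyamine enzymes, 4 of 7 regulators, 3 of 7 synthetases, 2 of 9 transporters and 1 of 3 serine synthesis enzymes rose. The 6 h count was 3 without anti-CD40 replicate 1, 2 without anti-CD40 replicate 2, and 3 without replicate 1 or without replicate 3 of the IL-21 group. The 24 h count was 9, with 8 higher and 1 lower, without anti-CD40 replicate 2, and 8 without IL-21 replicate 2. Ribosomal protein transcripts took 16.9% to 22.0% of listed TPM with IL-21 at 24 h and 22.9% to 26.9% with anti-CD40 alone, and with these, mitochondrial and pseudogene transcripts removed and the rest rescaled, 14 genes rose and 1 fell, where 13.8% of all genes then tested rose and 10.7% fell. In a fit of the compared groups only, the 24 h calls of Atf4 and Atf5 ended (limma adjusted p = 0.103 and 0.0767). The 7 B cell markers summed to 443 to 718 TPM with IL-21 at 6 h, against 1413 to 2542 TPM with anti-CD40 alone, and to 1481 to 2027 TPM with IL-21 at 24 h, against 3387 to 3756 TPM, and their part in the result was not tested.

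IL-4 added to anti-CD40 was accompanied by 2 higher and 0 lower genes at 6 h, where 1.65% of all tested genes rose and 2.4% fell. At 24 h it was accompanied by 6 higher and 3 lower genes, where 8.28% rose and 23.1% fell. The medians were 0.37 and 0.23, which are 0.36 and 0.54 above those of all genes. The 6 genes that rose at 24 h were Shmt1, Srm, Pycr1, Psat1, Chac1 and Atf4, and the 3 that fell were Ddit4, Slc38a2 and Slc38a1. When every library was rescaled by the median of its ratios to the mean library, 18 genes rose and 3 fell at 24 h, where 19.2% of all genes then tested rose and 16.3% fell. Without replicate 1 of the IL-4 group, which stands apart, 5 rose and 5 fell at 24 h, where 8.83% of all tested genes rose and 38.1% fell, and the 6 h count was 1 without any 1 of the 6 libraries. In a fit of the compared groups only, the calls of Ddit4 and Pycr1 held at 24 h and the other 7 ended (limma adjusted p 0.073 to 0.163), where 2.08% of all tested genes rose and 5.43% fell. At 24 h the T cell markers summed to 13.7 to 46.5 TPM with IL-4, against 0.280 to 1.26 TPM with anti-CD40 alone, and the B cell markers to 1843 to 2446 TPM with IL-4, against 3387 to 3756 TPM with anti-CD40 alone, and their part in the result was not tested.

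IL-21 added to anti-CD40 and IL-4 was accompanied by 0 called genes among the 37 at 6 h by limma, where 1.25% of all tested genes rose and 1.28% fell. At an unadjusted p below 0.05, 1 was higher and 2 were lower. At 24 h, 9 rose and 0 fell, where 21.8% of all tested genes rose and 2.39% fell, so that the share of the 37 that rose lay close to that of all genes. The 9 were Ddit4, Trib3, Sesn2, Chac1, Mthfd2, Slc7a1, Slc38a1, Aars and Gars. Without replicate 1 of the IL-4 group, one of the libraries that stand apart, the count was 27, where 41.2% of all tested genes rose. It was 5 without replicate 2 and 4 without replicate 3 of that group. Shares of all genes without replicate 2 or 3 are not given here, so these counts are not read as particular to the 37. With median-of-ratios rescaling 6 rose and 2 fell, where 10.1% of all genes then tested rose and 11.7% fell. In a fit of the compared groups only, all 9 calls ended (limma adjusted p 0.0603 to 0.257), where 2.35% of all tested genes rose and 0.469% fell. The T cell marker sum was higher with both cytokines than with IL-4, as given above. Cd3g, Cd4 and Cd28 were below 1 TPM everywhere, so most of the sum came from Cd3d, Cd3e, Cd8a and Thy1. The part of these markers in the result was not tested.

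Between 6 h and 24 h of culture, 1 of the 37 genes rose and 10 fell with anti-CD40 alone, where 16.1% of all tested genes rose and 8.17% fell. With IL-4, 0 rose and 11 fell, where 8.82% rose and 16.6% fell. With IL-21, 6 rose and 8 fell, where 26.2% rose and 9.3% fell, and with both cytokines 2 rose and 6 fell, where 20.8% rose and 9.46% fell. The medians minus those of all genes were -0.63 with anti-CD40 alone, -0.33 with IL-4, -0.13 with IL-21 and 0.08 with both cytokines. The count with IL-4 was 21 without replicate 1 of its 24 h group, where 9.65% of all tested genes rose and 30.1% fell. It was 7 without replicate 3, where 909 of 12126 tested genes rose and 969 fell. With anti-CD40 alone the B cell markers summed to 3387 to 3756 TPM at 24 h, against 1413 to 2542 TPM at 6 h, and the erythroid markers to 33.1 to 38.3 TPM at 24 h, against 143 to 179.6 TPM at 6 h. With both cytokines the T cell markers summed to 59.7 to 70.4 TPM at 24 h, against 2.83 to 7.97 TPM at 6 h. The part of these markers in the result was not tested.

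**Figure D1:**
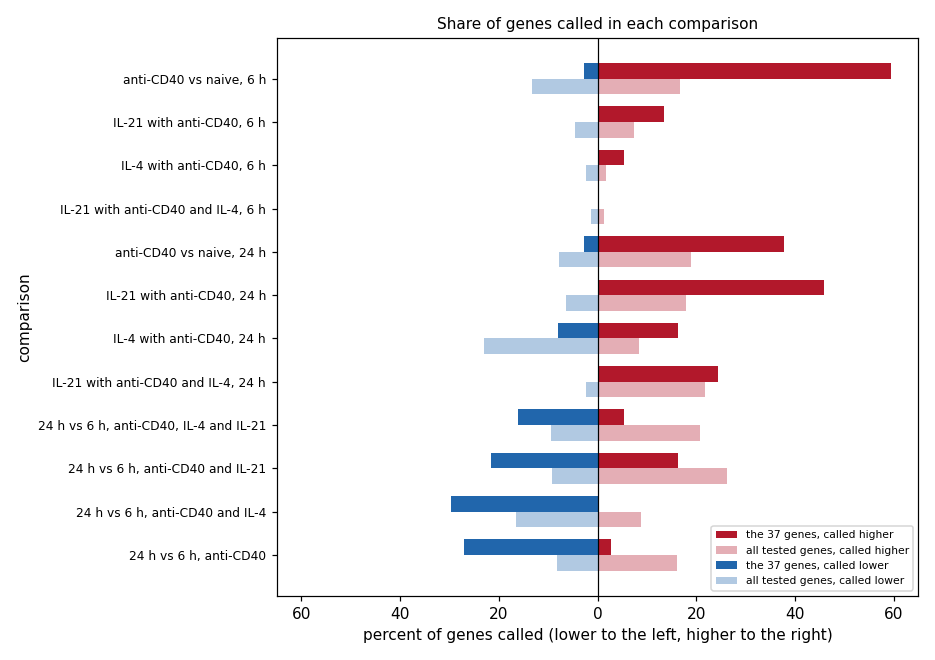
Bars give the percentage of genes that rose (above 0) or fell (below 0) at a limma adjusted p below 0.05 in each of 12 comparisons, for the 37 genes and for all 12147 tested genes. The 37 genes exceed all genes most in anti-CD40 for 6 h against naive cells, with 22 of 37 higher against 16.6% of all genes.

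Atf4 (ENSMUSG00000042406, chr15:80255184-80257541 of GRCm38, plus strand) changed in both directions. It had 252, 214 and 231 TPM after 6 h of anti-CD40, against 243, 148 and 161 TPM in naive cells (0.37 ± 0.18, limma adjusted p = 0.129). These groups overlapped. After 24 h it fell to 109, 75.8 and 113 TPM, below every naive library (-0.87 ± 0.18, limma adjusted p = 0.000899). With IL-21 at 6 h it reached 360.1, 359.7 and 378 TPM (0.66 ± 0.18, limma adjusted p = 0.0164) and at 24 h 132, 165 and 131 TPM (0.54 ± 0.18, limma adjusted p = 0.0309), in each case above every library with anti-CD40 alone. IL-4 at 24 h gave 190.0, 130.5 and 145 TPM (0.64 ± 0.18, limma adjusted p = 0.0086). In all 4 cultures Atf4 was lower at 24 h than at 6 h, with differences of -1.24, -1.16, -1.36 and -0.98 on the log2 scale with anti-CD40 alone, IL-4, IL-21 and both cytokines, with limma adjusted p between 3.9e-06 and 0.000199. Each of these 4 calls held when any 1 library was left out. The call with IL-21 at 6 h ended without anti-CD40 replicate 2 or IL-21 replicate 3 (limma adjusted p 0.0566 to 0.0712), that at 24 h without anti-CD40 replicate 2 or IL-21 replicate 2 (limma adjusted p 0.14 to 0.205), and that with IL-4 at 24 h without anti-CD40 replicate 2 (limma adjusted p = 0.0602).

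Trib3, which binds ATF4 and dampens its output, and Chac1, which breaks down glutathione, rose after 6 h of anti-CD40 and were not called after 24 h. Trib3 had 3.10, 2.79 and 3.55 TPM after 6 h of anti-CD40, against 1.52, 0.331 and 0.275 TPM in naive cells (1.35 ± 0.23, limma adjusted p = 9.51e-05), and the groups did not overlap. At 24 h with anti-CD40 alone it had 0.713, 0.644 and 0.443 TPM (-0.03 ± 0.23, limma adjusted p = 0.954). With its levels near the lower end of the table, Chac1 had 1.92, 1.54 and 1.43 TPM after 6 h of anti-CD40, against 0, 0 and 0.0590 TPM in naive cells (1.36 ± 0.22, limma adjusted p = 3.87e-05). IL-4 raised Chac1 further at 6 h, to 4.77, 4.22 and 3.52 TPM (0.97 ± 0.22, limma adjusted p = 0.00761), a call that held without any 1 library. At 24 h with both cytokines Trib3 had 3.15, 4.80 and 4.08 TPM, against 2.21, 1.20 and 0.914 TPM with IL-4 (1.06 ± 0.23, limma adjusted p = 0.00289). Where both cytokines were present Chac1 had 3.51, 3.60 and 2.29 TPM, against 1.80, 0.567 and 0.585 TPM with IL-4 (1.10 ± 0.22, limma adjusted p = 0.0012). Neither pair of groups overlapped. Both calls held when any 1 library was left out and ended in a fit of the compared groups only (limma adjusted p = 0.119 for Trib3 and 0.126 for Chac1). With IL-4 against anti-CD40 alone at 24 h the Chac1 difference was 0.65 ± 0.22, limma adjusted p = 0.0276, and the call ended without anti-CD40 replicate 1, 2 or 3 or IL-4 replicate 1 (limma adjusted p 0.0505 to 0.146), with a difference of 0.37 without replicate 1 of the IL-4 group.

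Sesn2, a leucine-binding inhibitor of mTORC1, rose to 5.91, 5.42 and 6.86 TPM after 6 h of anti-CD40, against 2.21, 1.59 and 1.45 TPM in naive cells (1.36 ± 0.27, limma adjusted p = 0.000416). With IL-21 at 6 h it had 12.2, 7.93 and 14.6 TPM (0.80 ± 0.27, limma adjusted p = 0.0569). With the replicate number as a block over all 27 libraries, the difference was 0.80 ± 0.26 with a limma adjusted p of 0.0468. The block treats same-numbered libraries as related, which no label states, so Sesn2 is not counted as called here. With the block 7 of the 37 genes passed the test in this comparison, against 5 as reported, by the addition of Sesn2 and Shmt1. At 24 h Sesn2 rose with both cytokines, at 7.34, 7.70 and 7.30 TPM, against 5.13, 1.93 and 1.71 TPM with IL-4 (1.21 ± 0.27, limma adjusted p = 0.00322). Atf5, a factor of the same family that is also controlled at translation, and Ddit3, which encodes the C/EBP relative CHOP, rose with IL-21 added to anti-CD40 at 24 h. Atf5 had 3.32, 5.38 and 6.23 TPM with IL-21, against 2.01, 0.155 and 2.22 TPM with anti-CD40 alone (1.38 ± 0.42, limma adjusted p = 0.0181). Ddit3 had 5.70, 6.22 and 8.84 TPM with IL-21, against 1.33, 2.15 and 2.38 TPM with anti-CD40 alone (1.42 ± 0.52, limma adjusted p = 0.0482). The Ddit3 call ended when any 1 library was left out, as did that of Trib3 in the same comparison, and the Atf5 call ended without anti-CD40 replicate 2 or IL-21 replicate 2 or 3 (limma adjusted p 0.0566 to 0.152). Ddit3 was read from ENSMUSG00000025408, since a second overlapping entry of that symbol was listed at 0 in all 27 libraries.

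Ddit4 (ENSMUSG00000020108, chr10:59949669-59951834 of GRCm38, minus strand), which encodes the mTORC1 inhibitor REDD1, changed most with IL-4 among the regulators. After 24 h it had 8.45, 4.65 and 3.75 TPM with IL-4, against 36.7, 24.8 and 48.7 TPM with anti-CD40 alone (-2.53 ± 0.29, limma adjusted p = 1.1e-06). Every IL-4 library lay below every library with anti-CD40 alone. IL-21 without IL-4 gave 22.7, 25.8 and 17.5 TPM at 24 h, which overlapped anti-CD40 alone (-0.68 ± 0.29, limma adjusted p = 0.0948). Both cytokines gave 18.7, 17.1 and 17.1 TPM, against the IL-4 values above (1.56 ± 0.29, limma adjusted p = 0.000659). The difference made by IL-21 was thus higher with IL-4 than without it, by 2.24 ± 0.41, limma adjusted p = 0.00175 in the test of the interaction. At 6 h Ddit4 rose with IL-21, with 69.2, 60.9 and 90.5 TPM, against 35.05, 32.8 and 40.6 TPM with anti-CD40 alone (0.99 ± 0.29, limma adjusted p = 0.027), a call that ended without anti-CD40 replicate 1 or 2 or IL-21 replicate 1 or 3 (limma adjusted p 0.0556 to 0.13). With both cytokines at 6 h it had 66.1, 69.0 and 64.1 TPM, against 38.8, 31.0 and 37.8 TPM with IL-4 (0.88 ± 0.29, limma adjusted p = 0.154).

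**Figure D2:**
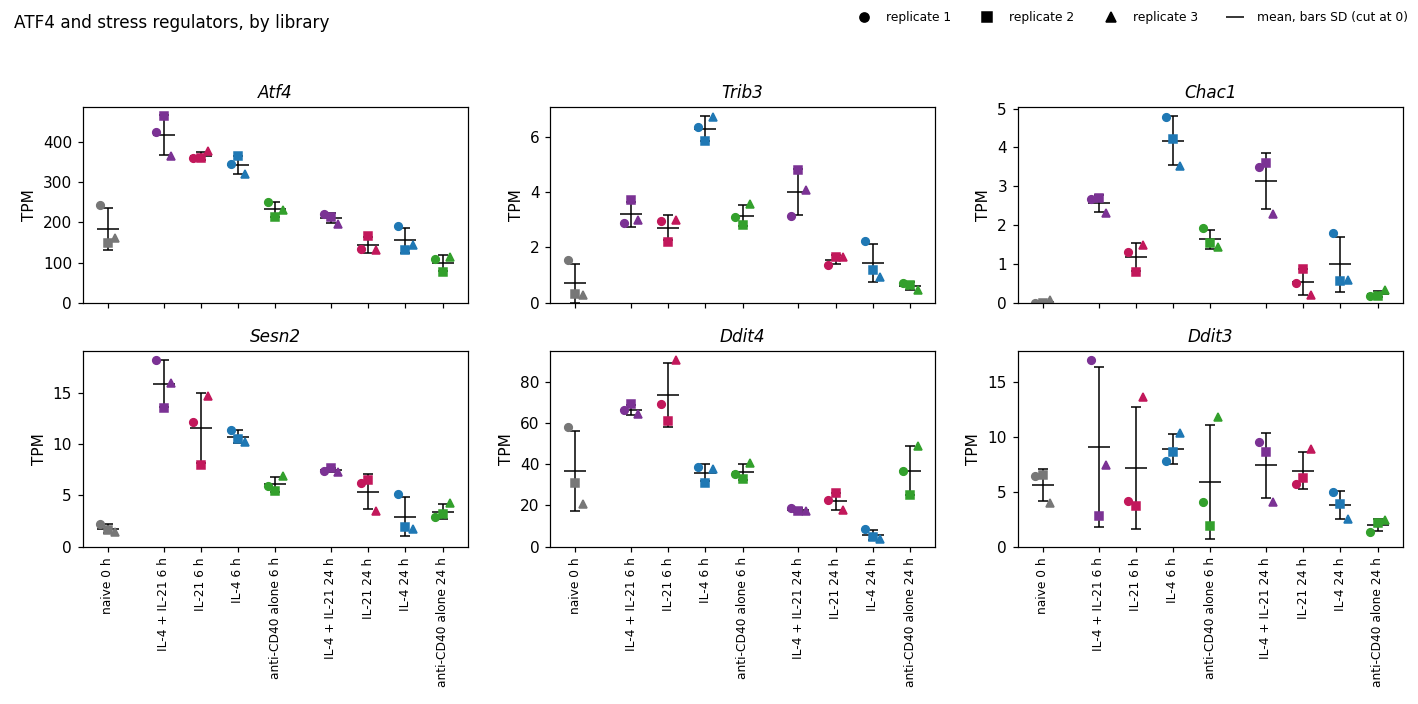
TPM of Atf4, Trib3, Chac1, Sesn2, Ddit4 and Ddit3 in each of the 27 libraries, by group (naive, then 6 h and 24 h), with circles, squares and triangles for replicates 1, 2 and 3, a line at the group mean and bars of 1 SD cut at 0. Atf4 is lower at 24 h than at 6 h in all 4 cultures, and Ddit4 is lowest with IL-4 at 24 h, at 3.75 to 8.45 TPM.

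Serine synthesis from glucose runs through Phgdh, Psat1 and Psph, of which Psat1, the phosphoserine aminotransferase (ENSMUSG00000024640, chr19:15904678-15947337 of GRCm38, minus strand), was called most often. It had 37.2, 41.6 and 33.9 TPM after 6 h of anti-CD40, against 19.7, 13.6 and 13.7 TPM in naive cells (1.23 ± 0.21, limma adjusted p = 7.9e-05). After 24 h it had 37.0, 28.8 and 37.7 TPM (1.10 ± 0.21, limma adjusted p = 0.000422). No library of either culture overlapped the naive ones. At 24 h Psat1 had 89.3, 106 and 67.3 TPM with IL-21 (1.30 ± 0.21, limma adjusted p = 7.94e-05) and 110.5, 64.8 and 55.5 TPM with IL-4 (1.08 ± 0.21, limma adjusted p = 0.000486), each set against anti-CD40 alone. With both cytokines it had 69.2, 94.5 and 72.4 TPM, which overlapped IL-4 without IL-21 (0.08 ± 0.21, limma adjusted p = 0.801). The interaction was -1.22 ± 0.30, limma adjusted p = 0.0144, so the difference made by IL-21 was lower with IL-4 than without it. With median-of-ratios rescaling Psat1 was lower with both cytokines than with IL-4, at -0.49 ± 0.12 and an adjusted p of 0.00514 by limma.

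Phgdh, the first enzyme of the branch, was measured with wide spread. It had 35.9, 27.4 and 55.2 TPM after 24 h of anti-CD40, against 14.9, 0 and 3.04 TPM in naive cells, with 1 naive library listed at 0 (3.28 ± 1.14, limma adjusted p = 0.0357). The call ended without naive replicate 2 or 3 or anti-CD40 replicate 1, 2 or 3 (limma adjusted p 0.0531 to 0.209). Psph, the phosphoserine phosphatase that releases serine, had 1.91, 1.47 and 5.63 TPM after 6 h of anti-CD40, against 2.78, 0.240 and 0.836 TPM in naive cells (0.82 ± 0.41, limma adjusted p = 0.144). Its groups overlapped there, and it passed the test in none of the 14 comparisons, with differences between -0.66 and 0.82.

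All 5 one-carbon enzymes rose after 6 h of anti-CD40 and again with IL-21 at 24 h. Shmt1, the cytosolic serine hydroxymethyltransferase (ENSMUSG00000020534, chr11:60788104-60811718 of GRCm38, minus strand), had 15.7, 17.0 and 12.1 TPM after 6 h of anti-CD40, against 2.14, 3.42 and 3.27 TPM in naive cells (2.02 ± 0.32, limma adjusted p = 4.13e-05). With IL-21 at 6 h it had 33.1, 35.2 and 22.7 TPM (0.97 ± 0.32, limma adjusted p = 0.0549), and with the replicate number as a block 0.97 ± 0.31 at a limma adjusted p of 0.0415. At 24 h it had 16.2, 24.3 and 10.52 TPM with IL-21 (1.47 ± 0.32, limma adjusted p = 0.00202) and 34.2, 12.2 and 10.2 TPM with IL-4 (1.49 ± 0.32, limma adjusted p = 0.00145), against 4.69, 6.28 and 4.73 TPM with anti-CD40 alone. With both cytokines it had 10.2, 11.8 and 14.8 TPM (-0.40 ± 0.32, limma adjusted p = 0.377 against IL-4), and the interaction was -1.87 ± 0.46, limma adjusted p = 0.0155. Without replicate 1 of the IL-4 group, the highest of its libraries, the difference with IL-4 was 0.98, and in a fit of the compared groups only the IL-4 and interaction calls ended (limma adjusted p = 0.0971 and 0.137).

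Shmt2, the mitochondrial counterpart that feeds one-carbon units into folate, had the largest rise of the 37 genes after 6 h of anti-CD40. It had 168, 138 and 169 TPM, against 38.5, 17.1 and 15.3 TPM in naive cells (2.80 ± 0.35, limma adjusted p = 1.51e-06). At 24 h it had 60.3, 54.0 and 81.1 TPM (1.52 ± 0.35, limma adjusted p = 0.00265), and with IL-21 135, 162 and 105 TPM (1.03 ± 0.35, limma adjusted p = 0.0367 against anti-CD40 alone). The last call ended without anti-CD40 replicate 1 or 2 or IL-21 replicate 1 or 2 (limma adjusted p 0.0857 to 0.134). Mthfd2, the mitochondrial methylenetetrahydrofolate dehydrogenase, had 27.6, 26.4 and 31.9 TPM after 6 h of anti-CD40, against 11.5, 9.45 and 9.95 TPM in naive cells (1.39 ± 0.28, limma adjusted p = 0.000567). IL-21 at 24 h gave 50.4, 64.2 and 39.4 TPM, against 23.1, 16.9 and 24.6 TPM with anti-CD40 alone (1.20 ± 0.28, limma adjusted p = 0.00338). Both cytokines gave 68.8, 69.4 and 62.2 TPM, against 59.2, 23.9 and 15.9 TPM with IL-4 (1.21 ± 0.28, limma adjusted p = 0.00486). In these 3 comparisons the groups did not overlap. The last call ended without IL-4 replicate 3 (limma adjusted p = 0.0575).

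Mthfd1, the cytosolic enzyme that interconverts folate forms, and Mthfd1l, its mitochondrial formate-producing relative, were called in the same comparisons of anti-CD40 and of IL-21 as Shmt2. Mthfd1 had 82.3, 67.8 and 61.8 TPM after 6 h of anti-CD40, against 25.9, 21.2 and 18.2 TPM in naive cells (1.66 ± 0.28, limma adjusted p = 8.6e-05). IL-21 at 24 h gave 93.6, 111 and 76.1 TPM, against 48.3, 40.1 and 52.9 TPM with anti-CD40 alone (0.97 ± 0.28, limma adjusted p = 0.0156). Mthfd1l had 39.4, 33.9 and 34.7 TPM after 6 h of anti-CD40, against 16.9, 9.81 and 7.84 TPM in naive cells (1.63 ± 0.35, limma adjusted p = 0.000848). IL-21 gave 57.0, 73.5 and 43.4 TPM at 24 h, against 23.2, 20.6 and 27.9 TPM with anti-CD40 alone (1.22 ± 0.35, limma adjusted p = 0.0123). The groups did not overlap in any of these 4 comparisons. With IL-21, the Mthfd1 call ended without anti-CD40 replicate 2 or IL-21 replicate 2 (limma adjusted p 0.0723 to 0.0728) and the Mthfd1l call without anti-CD40 replicate 2 or IL-21 replicate 2 (limma adjusted p 0.0539 to 0.0648). After 24 h of anti-CD40, against naive cells, the call ended for Mthfd1l without naive replicate 2 or 3 or anti-CD40 replicate 1 or 3 (limma adjusted p 0.0633 to 0.14) and for Mthfd2 without naive replicate 2 or anti-CD40 replicate 3 (limma adjusted p 0.0517 to 0.0596). Over the 5 one-carbon enzymes the median was 1.20 with IL-21 at 24 h, which is 0.97 above that of all genes, and 0.63 with both cytokines against IL-4, which is 0.25 above it.

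Among the enzymes of asparagine, proline and aspartate, at most 2 of the 4 passed the test in any comparison. Got1 had 12.2, 7.12 and 7.55 TPM after 6 h of anti-CD40, against 2.60, 0.674 and 0.769 TPM in naive cells (2.14 ± 0.60, limma adjusted p = 0.00896). Pycr1, which completes proline synthesis in mitochondria, had 2.77, 1.47 and 4.09 TPM after 6 h of anti-CD40, against 0.152, 0 and 0 TPM in naive cells (1.79 ± 0.38, limma adjusted p = 0.000906). Both held when any 1 library was left out. With IL-4 at 24 h Pycr1 had 2.30, 2.08 and 0.981 TPM, against 0.493, 0.101 and 0 TPM with anti-CD40 alone (1.20 ± 0.38, limma adjusted p = 0.02), and this call ended without anti-CD40 replicate 2 or 3 or IL-4 replicate 2 (limma adjusted p 0.0503 to 0.0848). Asns, the asparagine synthetase and a classical ATF4 target, passed the test in none of the 14 comparisons. It had 0.518, 0.339 and 0.712 TPM after 6 h of anti-CD40, against 0, 0.254 and 0 TPM in naive cells (0.49 ± 0.49, limma adjusted p = 0.516). IL-4 at 24 h gave 1.46, 0.124 and 2.52 TPM, against 0, 0 and 0 TPM with anti-CD40 alone (limma adjusted p = 0.0943), so no fold is given against a group listed at 0. Aldh18a1, which starts proline synthesis from glutamate, also passed the test nowhere, and had 12.3, 12.6 and 9.96 TPM with both cytokines at 24 h, against 8.68, 1.44 and 4.10 TPM with IL-4 (1.35 ± 0.63, limma adjusted p = 0.115).

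**Figure D3:**
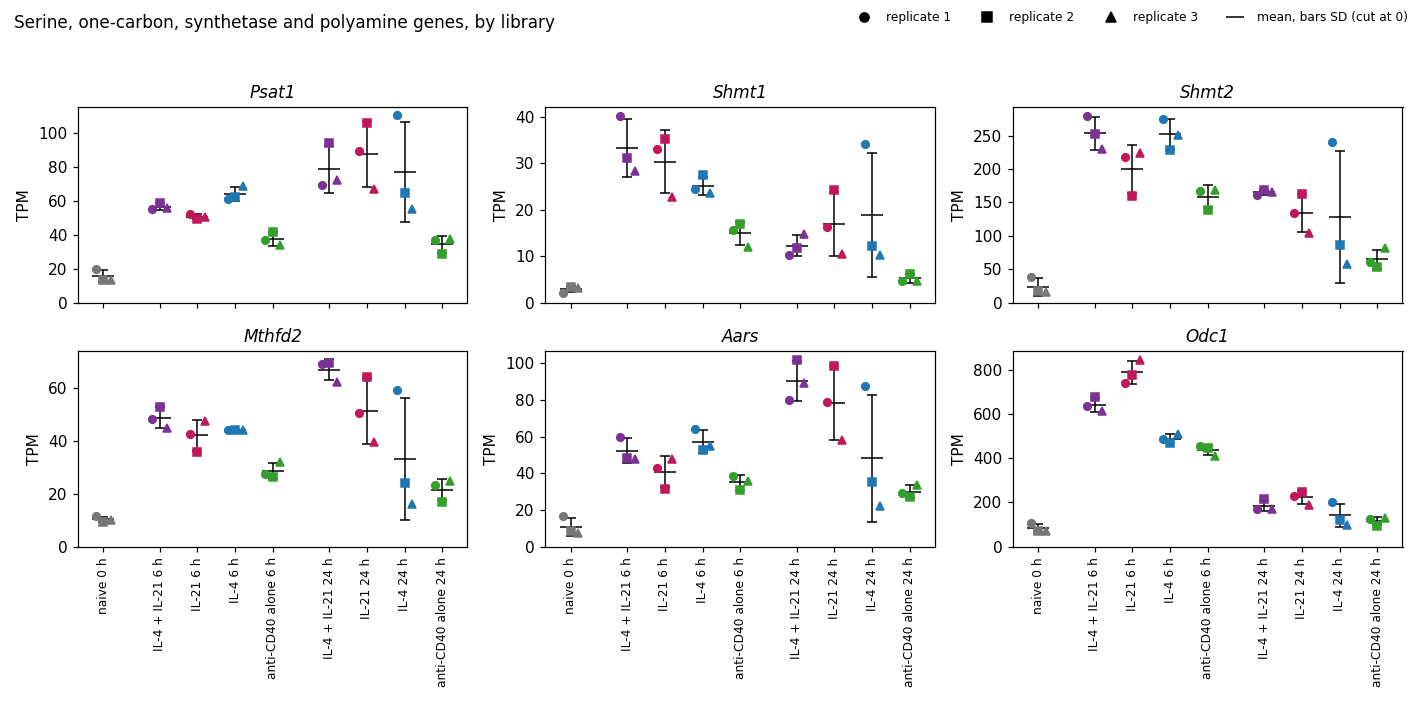
TPM of Psat1, Shmt1, Shmt2, Mthfd2, Aars and Odc1 in each of the 27 libraries, by group (naive, then 6 h and 24 h), with a symbol for each replicate, a line at the group mean and bars of 1 SD cut at 0. Odc1 peaks at 6 h in all 4 cultures, whereas Psat1 with IL-21 is higher at 24 h than at 6 h.

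No comparison called more than 3 of the 9 transporters. Slc7a5, the light chain of the large neutral amino acid transporter LAT1, had 22.5, 12.6 and 12.7 TPM after 6 h of anti-CD40, against 7.001, 2.63 and 1.91 TPM in naive cells (1.9 ± 0.46, limma adjusted p = 0.00282). After 24 h it had 12.2, 13.1 and 14.8 TPM (1.70 ± 0.46, limma adjusted p = 0.0085), a call that ended without naive replicate 3 (limma adjusted p = 0.0566). With IL-21 at 24 h it had 45.0, 53.1 and 27.9 TPM, above all 3 libraries with anti-CD40 alone (1.54 ± 0.46, limma adjusted p = 0.0174), a call that ended without anti-CD40 replicate 1 or 2 or IL-21 replicate 1 or 2 (limma adjusted p 0.051 to 0.0755). Slc3a2, the heavy chain CD98 that LAT1 needs at the surface, did not pass the test in any comparison. It had 70.8, 31.4 and 24.6 TPM after 6 h of anti-CD40, against 81.7, 34.2 and 23.3 TPM in naive cells (-0.08 ± 0.55, limma adjusted p = 0.944). Replicate 1 was the highest library for Slc3a2 in the naive and all 4 of the 6 h groups, at 70.8 to 93.5 TPM, against 23.3 to 41.1 TPM in replicates 2 and 3. Slc7a5, Slc7a6, Slc1a4, Slc1a5, Slc38a2 and Srm were likewise highest in replicate 1 of all 5 groups, and the part of this in their tests was not tested apart from the replicate block.

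Slc7a11, the cystine importer xCT, responded to IL-21 at both times. At 6 h it had 1.34, 1.904 and 1.34 TPM with IL-21, against 0.347, 0.451 and 0.477 TPM with anti-CD40 alone (0.82 ± 0.16, limma adjusted p = 0.000968). At 24 h it had 0.853, 0.657 and 1.57 TPM with IL-21, against 0.230, 0.172 and 0.112 TPM with anti-CD40 alone (0.77 ± 0.16, limma adjusted p = 0.00102). Both calls held when any 1 library was left out, although the levels are low. In the presence of IL-4 its values were 0.212, 0.322 and 0.534 TPM with both cytokines and 0.187, 0.280 and 0.323 TPM with IL-4 at 6 h (0.10 ± 0.16, limma adjusted p = 0.932). The interaction at 6 h did not pass the test (-0.72 ± 0.22, limma adjusted p = 0.237), so a difference between the IL-21 effects with and without IL-4 was not shown.

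The sodium-coupled neutral amino acid transporters Slc38a1 and Slc38a2, which carry glutamine and other small neutral amino acids, were lower with IL-4. Slc38a2 had 35.6, 17.1 and 14.2 TPM with IL-4 at 24 h, against 51.3, 44.2 and 64.3 TPM with anti-CD40 alone (-1.31 ± 0.25, limma adjusted p = 0.000399), and the groups did not overlap. Slc38a1 had 2.38, 1.23 and 0.794 TPM with IL-4 at 24 h, against 3.42, 2.19 and 6.48 TPM with anti-CD40 alone (-0.99 ± 0.28, limma adjusted p = 0.0105), with overlap, and this call ended without anti-CD40 replicate 3 or IL-4 replicate 3 (limma adjusted p 0.0754 to 0.103). With both cytokines at 24 h Slc38a1 had 2.61, 4.58 and 3.43 TPM (0.91 ± 0.28, limma adjusted p = 0.0246 against IL-4), a call that ended without IL-4 replicate 2 or 3 or IL-4 and IL-21 replicate 2 or 3 (limma adjusted p 0.0623 to 0.175). Slc38a1 was also the 1 gene of the 37 that fell after 6 h of anti-CD40, at 1.62, 0.906 and 0.979 TPM, against 3.38, 5.36 and 3.46 TPM in naive cells (-1.22 ± 0.28, limma adjusted p = 0.00182). It rose between 6 h and 24 h with anti-CD40 alone (1.14 ± 0.28, limma adjusted p = 0.00505), with IL-21 (1.03 ± 0.28, limma adjusted p = 0.00657) and with both cytokines (1.22 ± 0.28, limma adjusted p = 0.00201). The call with anti-CD40 alone ended without replicate 3 of its 24 h group (limma adjusted p = 0.051).

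Slc7a1, the cationic amino acid transporter for arginine and lysine, had 1.83, 1.54 and 1.65 TPM with both cytokines at 24 h, against 0.739, 0.106 and 0 TPM with IL-4 (1.10 ± 0.30, limma adjusted p = 0.0118). The groups did not overlap, and the call ended without IL-4 replicate 2 or 3 (limma adjusted p 0.0634 to 0.0882). Slc7a6, a light chain for cationic and neutral amino acids, rose after 24 h of anti-CD40, to 17.7, 14.8 and 20.2 TPM, against 7.46, 4.97 and 3.97 TPM in naive cells (1.55 ± 0.40, limma adjusted p = 0.00672). Slc1a4, a neutral amino acid transporter that carries serine, rose after 6 h, to 1.99, 1.16 and 1.07 TPM, against 0.282, 0 and 0.141 TPM in naive cells (1.07 ± 0.26, limma adjusted p = 0.00263). Slc1a5, the glutamine transporter ASCT2, passed the test in no comparison, with differences from -0.41 to 0.72. The median over the 9 transporters with IL-4 at 24 h was -0.32, or -0.02 relative to all genes, and turned to 0.06 with median-of-ratios rescaling.

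**Figure D4:**
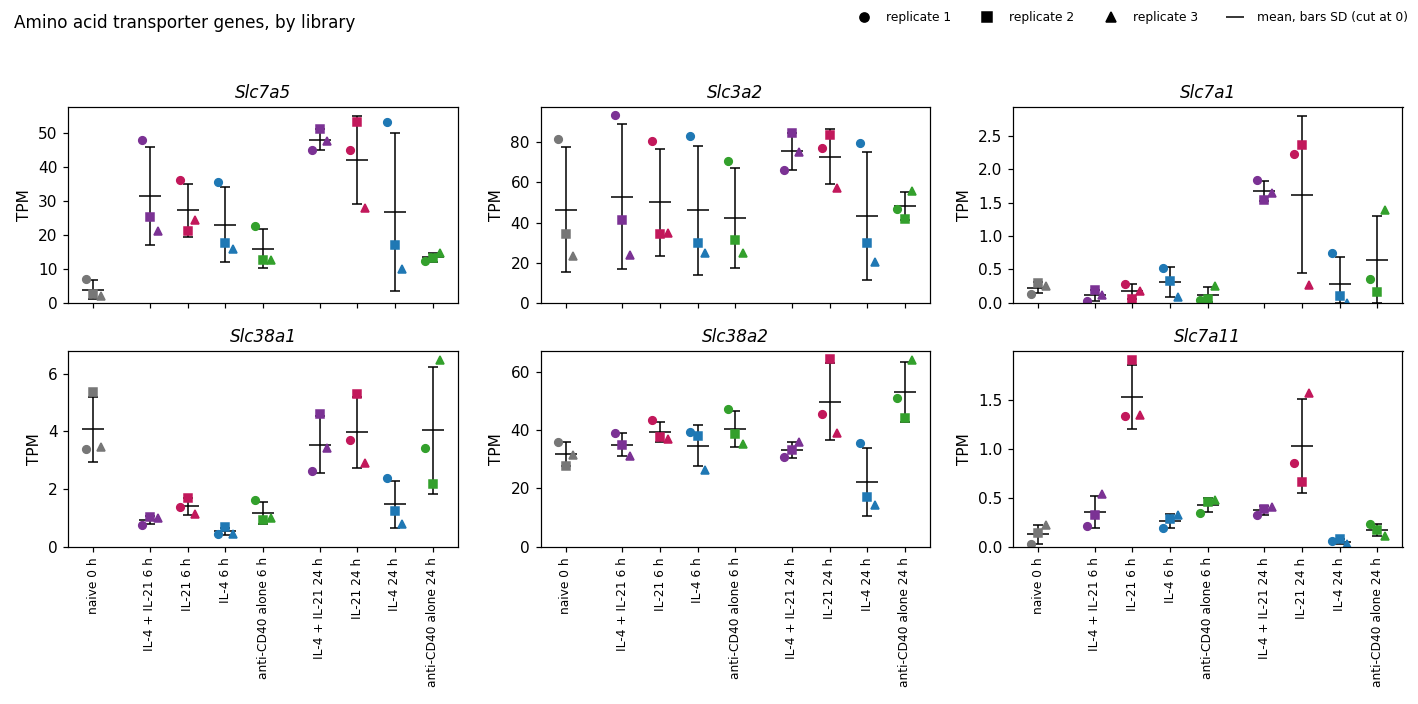
TPM of Slc7a5, Slc3a2, Slc7a1, Slc38a1, Slc38a2 and Slc7a11 in each of the 27 libraries, by group (naive, then 6 h and 24 h), with a symbol for each replicate, a line at the group mean and bars of 1 SD cut at 0. Replicate 1 (circles) is the highest library for Slc3a2, Slc7a5 and Slc38a2 in the naive and 6 h groups.

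The 7 cytosolic tRNA synthetases, which charge tRNA with their amino acids, all rose after 6 h of anti-CD40, with differences from 0.62 to 1.75. Lars, for leucine, had 89.2, 88.6 and 69.8 TPM, against 28.6, 21.7 and 21.4 TPM in naive cells (1.75 ± 0.21, limma adjusted p = 6.58e-07). Aars, for alanine (ENSMUSG00000031960, chr8:111033144-111057664 of GRCm38, plus strand), had 38.8, 30.8 and 35.97 TPM, against 16.5, 8.45 and 7.46 TPM in naive cells (1.69 ± 0.33, limma adjusted p = 0.000383). Nars, for asparagine, had 101, 72.3 and 76.2 TPM, against 61.6, 25.1 and 24.9 TPM in naive cells (1.26 ± 0.34, limma adjusted p = 0.00611). None of the 7 had overlapping groups there, a count that was not made over all genes. The call for Eprs (glutamate and proline) ended without naive replicate 1 or 2 or anti-CD40 replicate 1 or 2 (limma adjusted p 0.0556 to 0.0891), that for Sars (serine) without naive replicate 2 or 3 or anti-CD40 replicate 1, 2 or 3 (limma adjusted p 0.0538 to 0.143) and that for Yars (tyrosine) without naive replicate 2 or 3 (limma adjusted p 0.0531 to 0.0567). After 24 h Aars, Lars, Nars and Sars were above naive cells, with differences of 1.47, 0.85, 1.15 and 1.51, and the Nars call ended without naive replicate 2 or 3 or anti-CD40 replicate 3 (limma adjusted p 0.0785 to 0.0871).

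With IL-21 at 24 h, Yars, Aars and Gars (glycine) rose. Yars had 54.2, 68.0 and 46.5 TPM, against 20.01, 17.3 and 23.5 TPM with anti-CD40 alone (1.42 ± 0.32, limma adjusted p = 0.00209). Aars had 78.9, 98.5 and 58.1 TPM, against 29.0, 27.3 and 33.8 TPM with anti-CD40 alone (1.33 ± 0.33, limma adjusted p = 0.00518). Gars had 97.7, 125 and 84.8 TPM, against 45.3, 41.9 and 57.0 TPM with anti-CD40 alone (1.07 ± 0.31, limma adjusted p = 0.0153). The groups did not overlap for these 3 genes, and the Gars call ended without anti-CD40 replicate 2 or IL-21 replicate 2 (limma adjusted p 0.0647 to 0.0733). With both cytokines at 24 h Aars had 80.0, 102 and 89.0 TPM, against 87.5, 35.2 and 22.1 TPM with IL-4 (1.11 ± 0.33, limma adjusted p = 0.0205), and Gars had 92.1, 116 and 104 TPM, against 116, 44.2 and 26.0 TPM with IL-4 (1.00 ± 0.31, limma adjusted p = 0.0259). For both genes, replicate 1 of the IL-4 group reached into or above the range of the libraries with both cytokines. Without that library the differences were 1.65 ± 0.27 for Aars and 1.58 ± 0.21 for Gars, with limma adjusted p of 5.38e-05 and 8.23e-06, whereas over the 6 libraries left out in turn each call ended in 4 cases, with adjusted p of up to 0.202 and 0.261. The 4 genes that rose with IL-21 at 24 h both without and with IL-4 were Aars, Gars, Mthfd2 and Trib3, which are 4 of the 17 and 4 of the 9. Without IL-4, 17 of all 37 genes rose, a share close to 4 of 9. The overlap was not counted over all tested genes, so the 4 are not read as a shared set. The Trib3 call without IL-4 ended when any 1 library was left out.

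Both polyamine enzymes rose after 6 h of anti-CD40. Odc1, ornithine decarboxylase and the rate-limiting step of polyamine synthesis (ENSMUSG00000011179, chr12:17544794-17551505 of GRCm38, plus strand), had 455, 444 and 411 TPM after 6 h of anti-CD40, against 106, 70.0 and 71.3 TPM in naive cells (2.42 ± 0.20, limma adjusted p = 2.87e-09). After 24 h it had 124, 94.1 and 128 TPM, which overlapped the naive range (0.50 ± 0.20, limma adjusted p = 0.0655). Between 6 h and 24 h it fell in all 4 cultures, with log2 differences of -1.92, -1.85, -1.82 and -1.80 with anti-CD40 alone, IL-4, IL-21 and both cytokines, with limma adjusted p between 2.65e-07 and 4.73e-07, and these calls held when any 1 library was left out. IL-21 gave 740.3, 777 and 846 TPM at 6 h (0.85 ± 0.20, limma adjusted p = 0.00547) and 229.6, 249 and 190.3 TPM at 24 h (0.95 ± 0.20, limma adjusted p = 0.00118), each above every library with anti-CD40 alone. Srm, spermidine synthase, had 132, 102 and 127 TPM after 6 h of anti-CD40, against 29.8, 20.3 and 18.1 TPM in naive cells (2.38 ± 0.31, limma adjusted p = 2.14e-06). At 24 h it had 142, 154 and 84.8 TPM with IL-21 (1.39 ± 0.31, limma adjusted p = 0.00191) and 239.8, 100.4 and 68.3 TPM with IL-4 (1.33 ± 0.31, limma adjusted p = 0.00218), against 52.9, 37.0 and 50.6 TPM with anti-CD40 alone. Neither cytokine group overlapped anti-CD40 alone, and both calls held when any 1 library was left out, although the difference with IL-4 was 0.83 without replicate 1 of that group, and this call ended in a fit of the compared groups only (limma adjusted p = 0.115). With IL-21 at 6 h Srm had 292, 201 and 253 TPM (1.03 ± 0.31, limma adjusted p = 0.0279), a call that ended without anti-CD40 replicate 1, 2 or 3 or IL-21 replicate 1 or 3 (limma adjusted p 0.0558 to 0.111).

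**Figure D5:**
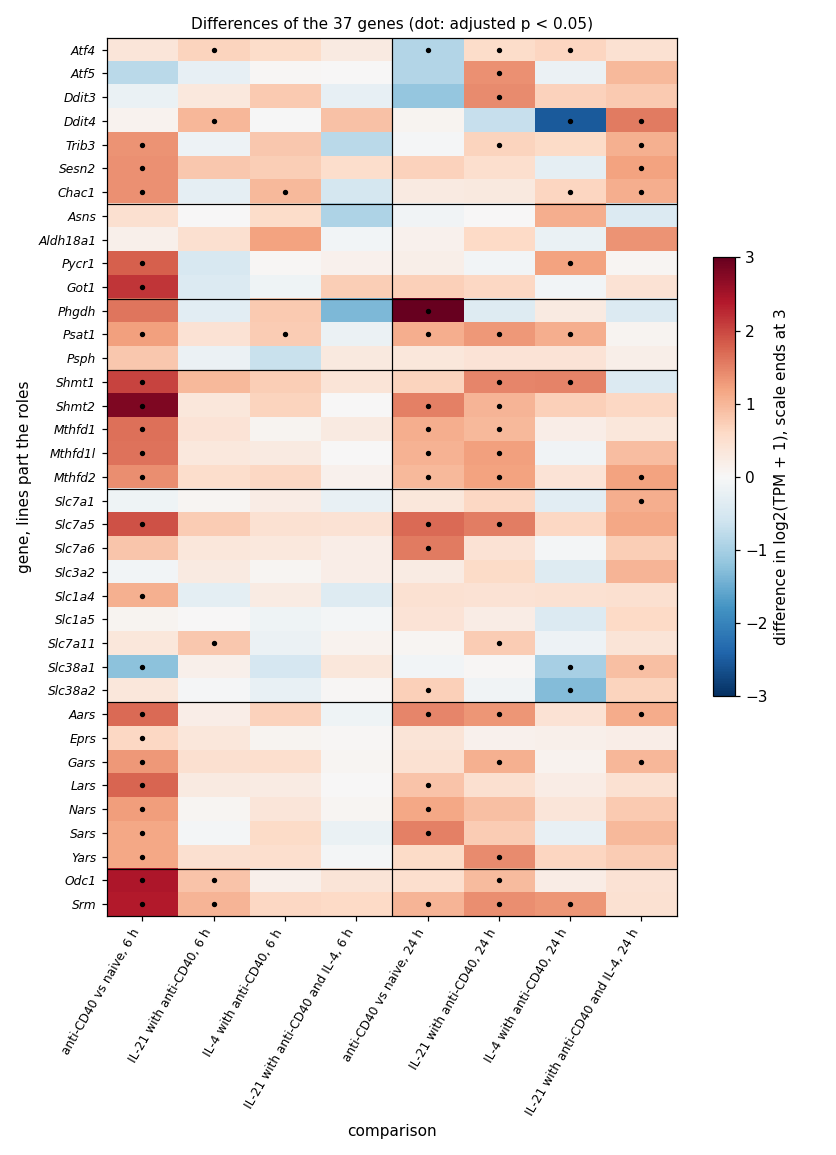
Heat map of the log2 differences of the 37 genes (down, by role) in 8 comparisons (across), with a colour scale that ends at 3 in either direction and a dot where the limma adjusted p was below 0.05. The column for 6 h of anti-CD40 against naive cells holds 23 dots, and the column for IL-21 added to anti-CD40 and IL-4 at 6 h holds 0.

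Whether the IL-21 effect depended on IL-4 was tested as an interaction over the 12147 genes. At 6 h limma called 0 of the 37, where 0.148% of all tested genes were called higher and 0.263% lower, and at an unadjusted p below 0.05 there were 0 higher and 1 lower. At 24 h 1 was called higher (Ddit4) and 2 lower (Psat1 and Shmt1), where 3.33% of all tested genes were called higher and 2.48% lower. All 3 held when any 1 of the 12 libraries was left out, but in a fit of the compared groups only Ddit4 alone was called and the Psat1 and Shmt1 calls ended (limma adjusted p = 0.131 and 0.137). Without replicate 1 of the IL-4 group the count was 7, where 15.9% of all tested genes were called higher and 4.36% lower, and the 4 additional genes were Slc38a2, Slc38a1, Chac1 and Sesn2, all higher.

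Across the 9 groups, 19 of the 37 genes had their highest mean in a 6 h group, 17 in a 24 h group and 1 in naive cells. The lowest mean was in naive cells for 24 genes, and the highest was in a group with IL-21 for 29. These counts were not made over all genes, so they are not read as particular to the 37. Of all tested genes, 65.2% had a positive difference with IL-21 added to anti-CD40 at 24 h. The share was 75% with both cytokines against IL-4 at 24 h, and 54% and 66.8% after 6 h and 24 h of anti-CD40 against naive cells. Genes with a TGATGNAA match in the promoter window rose in 8 of 10 cases after 6 h of anti-CD40, and those whose window held none in 10 of 21, where 16.6% of all tested genes rose. With IL-21 at 24 h the counts were 5 of 10 and 10 of 21, where 17.8% of all tested genes rose, and with both cytokines against IL-4 at 24 h 4 of 10 and 4 of 21, where 21.8% rose. The order was the other way after 24 h of anti-CD40, with 1 of 10 and 9 of 21, where 18.9% rose. It was also the other way with IL-21 at 6 h, with 1 of 10 and 3 of 21, where 7.43% rose. With IL-4 the counts were 1 of 10 and 1 of 21 at 6 h, and 2 of 10 and 3 of 21 at 24 h. Genes with a match thus did not rise more often throughout.

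Genes of the same pathways outside the 37 were counted from lists made with general knowledge, and the counts are read against the shares of all tested genes. Their calls come from the reported fit alone and were not checked without single libraries or in the alternative fits. For both cytokines against IL-4 at 24 h, all 9 calls among the 37 ended in a fit of the compared groups only. The shares of all genes are given next. They were 16.6% higher and 13.3% lower after 6 h of anti-CD40, 17.8% and 6.33% with IL-21 at 24 h, 8.28% and 23.1% with IL-4 at 24 h, and 21.8% and 2.39% with both cytokines against IL-4 at 24 h. Of 12 purine synthesis genes, 9 rose after 6 h of anti-CD40, among them Ppat, the first committed step, with 39.9 ± 1.66 TPM (SD, n = 3), against 13.6 ± 0.537 TPM in naive cells (1.49 ± 0.12, limma adjusted p = 3.87e-09). With IL-21 added for 24 h 7 of the 12 rose and 0 fell, with Paics at 189.7 ± 10.6 TPM (SD, n = 3), against 99.2 ± 11.8 TPM with anti-CD40 alone (0.93 ± 0.12, limma adjusted p = 5.47e-06). With both cytokines against IL-4 at 24 h, 0 of the 12 purine synthesis genes rose and 0 fell. Of 16 tested genes of serine, glycine and folate metabolism, 6 rose and 1 fell after 6 h of anti-CD40, led by Gcsh of the glycine cleavage system, with 39.5 ± 0.591 TPM (SD, n = 3), against 8.79 ± 1.34 TPM in naive cells (2.06 ± 0.18, limma adjusted p = 7.64e-09). With IL-4 at 24 h, Tyms of the same list, thymidylate synthase, had 156 ± 46.6 TPM (SD, n = 3), against 37.8 ± 2.47 TPM with anti-CD40 alone (1.97 ± 0.22, limma adjusted p = 5.83e-07). With both cytokines against IL-4 at 24 h 1 gene of this list rose and 4 fell, and Tyms had 85.6 ± 5.54 TPM (SD, n = 3), against 156 ± 46.6 TPM with IL-4 (-0.81 ± 0.22, limma adjusted p = 0.0114).

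Of the 13 other cytosolic synthetases, 6 rose and 1 fell after 6 h of anti-CD40, 5 rose and 0 fell with IL-21 at 24 h, and 5 rose and 1 fell with both cytokines against IL-4. Cars, for cysteine, with IL-21 at 24 h had 34.8 ± 4.80 TPM (SD, n = 3), against 13.3 ± 3.21 TPM with anti-CD40 alone (1.34 ± 0.32, limma adjusted p = 0.00351). Of the 17 mitochondrial synthetases, 3 rose and 1 fell after 6 h of anti-CD40 and 2 rose and 0 fell with IL-21 at 24 h, counts near or below the shares of all genes. With both cytokines against IL-4 at 24 h, 0 of these 17 rose and 0 fell. Of 14 tested genes of glutamate, proline and aspartate metabolism, 4 rose and 1 fell with IL-21 at 24 h, led by Bcat1, which starts the breakdown of branched-chain amino acids, with 15.7 ± 2.87 TPM (SD, n = 3), against 2.98 ± 1.07 TPM with anti-CD40 alone (2.09 ± 0.37, limma adjusted p = 0.000234). Of the 12 other tested transporters, 1 rose and 5 fell with IL-4 at 24 h, and 5 rose and 0 fell with both cytokines against IL-4, led by Slc7a7 with 6.70 ± 1.07 TPM (SD, n = 3), against 0.665 ± 0.543 TPM with IL-4 (2.25 ± 0.31, limma adjusted p = 1.76e-05). Of the 12 other polyamine genes, 4 rose and 1 fell after 6 h of anti-CD40, with Eif5a, the protein that carries the spermidine-derived hypusine, at 1916 ± 76.9 TPM (SD, n = 3), against 646 ± 124 TPM in naive cells (1.58 ± 0.17, limma adjusted p = 1.46e-07). Of these 12, 4 rose and 0 fell with IL-21 at 24 h, and 0 rose and 0 fell with both cytokines against IL-4 at 24 h.

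Among 17 tested partners and targets of the integrated stress response, Cebpb, whose product pairs with ATF4, fell with anti-CD40 at both times and rose in all 4 comparisons of IL-21. After 6 h of anti-CD40 it had 9.08 ± 1.77 TPM (SD, n = 3), against 35.1 ± 8.02 TPM in naive cells (-1.83 ± 0.21, limma adjusted p = 3.2e-07), and after 24 h 3.99 ± 0.440 TPM (SD, n = 3), against 35.1 ± 8.02 TPM in naive cells (-2.83 ± 0.21, limma adjusted p = 1e-09). Macrophage and monocyte markers summed to 56.1 to 76.2 TPM in naive libraries, against 0.624 to 10.2 TPM in cultured ones. Their part in the lower Cebpb of the cultured cells was not tested. IL-21 was compared among cultured groups. At 6 h with IL-21 Cebpb had 38.9 ± 7.15 TPM (SD, n = 3), against 9.08 ± 1.77 TPM with anti-CD40 alone (1.98 ± 0.21, limma adjusted p = 4.88e-07). At 24 h it had 32.0 ± 4.58 TPM (SD, n = 3), against 3.99 ± 0.440 TPM with anti-CD40 alone (2.72 ± 0.21, limma adjusted p = 1.85e-09). With both cytokines Cebpb had 24.9 ± 4.06 TPM (SD, n = 3), against 12.4 ± 2.64 TPM with IL-4 (0.95 ± 0.21, limma adjusted p = 0.00807) at 6 h. At 24 h the values were 14.4 ± 2.10 TPM (SD, n = 3), against 3.40 ± 0.662 TPM with IL-4 (1.80 ± 0.21, limma adjusted p = 1.22e-06). In that 24 h comparison 8 of the 17 rose and 0 fell, against 21.8% and 2.39% of all genes. After 6 h of anti-CD40 4 rose and 3 fell, close to the shares of all genes. Among 20 tested genes of amino acid sensing by mTORC1, Sesn1, a relative of Sesn2, fell with IL-21 in all 4 comparisons, and at 6 h it had 6.05 ± 0.723 TPM (SD, n = 3), against 37.2 ± 3.16 TPM with anti-CD40 alone (-2.44 ± 0.15, limma adjusted p = 1.21e-10). At 24 h with IL-21 it had 7.46 ± 0.318 TPM (SD, n = 3), against 51.5 ± 5.62 TPM with anti-CD40 alone (-2.63 ± 0.15, limma adjusted p = 1.87e-11). With IL-4 at 6 h it also fell, to 13.3 ± 1.35 TPM (SD, n = 3), against 37.2 ± 3.16 TPM with anti-CD40 alone (-1.42 ± 0.15, limma adjusted p = 1.07e-06). With both cytokines at 24 h Castor1, an arginine sensor, had 9.64 ± 1.10 TPM (SD, n = 3), against 0.936 ± 0.798 TPM with IL-4 (2.53 ± 0.25, limma adjusted p = 1.39e-07). Of the 20 genes 9 rose and 1 fell in that comparison, and 2 rose and 6 fell with IL-4 against anti-CD40 alone at 24 h, the last near the shares of all genes.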

How the data were processed

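Quantification used Salmon 1.9.0 and the mm10 (GRCm38) build, per the submitters' processing notes. The authors' deposited table holds TPM values of 35604 genes in 27 libraries and no read counts, so depth is unknown. Symbols and positions came from GENCODE M21, which named 35301 identifiers, and promoter windows from RefSeq. The 37 genes and the lists were chosen with earlier results of these data known. Values were used as listed, as log2(TPM + 1). Genes that reached 1 TPM in 3 or more libraries were fitted with limma 3.58.1 in R 4.3.3, with 1 mean per group over all libraries, a variance trend and 18 residual degrees of freedom. P-values were adjusted over 12147 genes by Benjamini-Hochberg in each comparison, and calls made below 0.05. Simulated data were used to check the script. Every one of the 37 genes could be named. From each other list up to 3 called genes per direction could be named, by size of difference, if the higher group averaged 5 TPM or more, and up to 4 promoters.

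The reported fits did not pair libraries by replicate number, and a replicate block was used only as an alternative. Deviations of all same-numbered libraries correlated above 0.1 in 3 comparisons at 6 h. These were IL-21 with anti-CD40 (0.186 to 0.335), IL-4 with anti-CD40 (0.107 to 0.382) and IL-21 on top of IL-4 (0.183 to 0.377). Alternatives were rescaling by median of ratios, a pseudocount of 0.1, a 5 TPM filter or none, removal of mitochondrial, ribosomal protein and pseudogene transcripts, no variance trend, a replicate block, omission of libraries, and fits of the compared groups only.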

Additional observations from a re-analysis of the deposited data

Results flagged for a closer look

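The difference made by IL-21 at 24 h was not the same with and without IL-4 for 3 of the 37 genes, by the limma interaction adjusted over 12147 genes. For Ddit4 the interaction was 2.24, with -0.68 for IL-21 added to anti-CD40 and 1.56 for IL-21 added to anti-CD40 and IL-4. For Psat1 it was -1.22, with differences of 1.30 without IL-4 and 0.08 with it. For Shmt1 it was -1.87, with 1.47 without IL-4 and -0.40 with it. In a fit of the compared groups only, the Psat1 and Shmt1 interactions did not pass the test (limma adjusted p = 0.131 and 0.137). The cause of these 3 differences was not tested.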

How the results depend on the processing

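Counts of called genes among the 37 moved by more than 1.5 times as follows, and the causes were not tested. With median-of-ratios rescaling the count was 7 for IL-4 at 6 h (2 as reported), 21 for IL-4 at 24 h (9), 3 for IL-21 with IL-4 at 6 h (0), 18 for 24 h against 6 h with anti-CD40 alone (11), 14 for the same times with both cytokines (8) and 7 for the interaction at 24 h (3). In this order, the shares of all genes then higher and lower were 2.77% and 3.52%, 19.2% and 16.3%, 1.79% and 2.74%, 16.2% and 14.7%, 20.1% and 16.5%, and 4.93% and 6.33%. Between the times, the share of all genes that fell was 8.17% with anti-CD40 alone and 9.46% with both cytokines as reported. Without mitochondrial, ribosomal protein and pseudogene transcripts it was 4 for IL-4 at 6 h and 2 for IL-21 with IL-4 at 6 h. Of all genes then tested, 2.29% rose and 3.77% fell in the former, and 1.82% rose and 2.28% fell in the latter. For IL-4 at 6 h it was 1 with a pseudocount of 0.1, 1 with no filter and 1 with a filter at 5 TPM. Without both libraries that stand apart, and so with a smaller pooled spread of fewer libraries, it was 11 for IL-21 at 6 h (5), 8 for IL-4 at 6 h, 2 and 27 for IL-21 with IL-4 at 6 h and 24 h (0 and 9), 17, 21 and 15 for 24 h against 6 h with anti-CD40 alone, IL-4 and both cytokines (11, 11 and 8), and 7 for the interaction at 24 h. Between the times, 2569 of 12023 genes rose and 1428 fell with anti-CD40 alone in this setting. The counts were 1247 and 3842 with IL-4, and 3062 and 1601 with both cytokines. For the other comparisons in this setting the shares of all genes are not given, and the counts are not read as particular to the 37. In fits of the compared groups only, which hold fewer libraries, it was 8 for IL-21 at 6 h, 10 and 2 for IL-4 at 6 h and 24 h, 2 and 0 for IL-21 with IL-4 at 6 h and 24 h, 18, 4, 8 and 18 for 24 h against 6 h with anti-CD40 alone, IL-4, IL-21 (14) and both cytokines, and 1 for the interaction at 24 h. The shares of all genes higher and lower, in this order, were 7.33% and 3.84%, 2.31% and 2.1%, 2.08% and 5.43%, 1.91% and 1.33%, 2.35% and 0.469%, 17.7% and 9.2%, 2.44% and 1.86%, 20.9% and 7.02%, 25.8% and 14%, and 1.49% and 0.889%.

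Leaving out 1 library at a time gave 20 to 24 for anti-CD40 at 6 h, 9 to 17 at 24 h, 2 to 6 and 8 to 17 for IL-21 at 6 h and 24 h, 1 to 1 and 6 to 12 for IL-4, 0 to 0 and 4 to 27 for IL-21 with IL-4, 9 to 10, 7 to 21, 10 to 13 and 7 to 8 for 24 h against 6 h with anti-CD40 alone, IL-4, IL-21 and both cytokines, and 0 to 0 and 3 to 7 for the interaction at 6 h and 24 h. With the replicate block the count for IL-21 with IL-4 at 24 h was 14 (9). Over all groups 48 of 108 same-numbered pairs of libraries correlated above 0.1 and the best correlated library of another group carried the same number for 20 of 27, a hint from the data and not from the design.

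A direction turned in 2 cases: Gars with IL-4 at 24 h was -0.48 without both libraries that stand apart, and Psat1 with IL-21 and IL-4 at 24 h was -0.49 with median-of-ratios rescaling. Medians that changed sign with that rescaling were, for IL-21 with IL-4 at 24 h, those of serine synthesis (0.08 to -0.49), polyamine enzymes (0.45 to -0.12) and asparagine, proline and aspartate enzymes (0.24 to -0.08), for IL-21 with IL-4 at 6 h those of all 37 genes, synthetases and asparagine, proline and aspartate enzymes (0.02 to 0.04 as reported, -0.06 to -0.03 rescaled), those of transporters with IL-4 at 24 h (-0.32 to 0.06) and for 24 h against 6 h with IL-4 (-0.06 to 0.21), and that of all 37 genes for 24 h against 6 h with IL-21 (0.11 to -0.13). Without mitochondrial, ribosomal protein and pseudogene transcripts the median turned to -0.15 for serine synthesis with IL-21 and IL-4 at 24 h, and to -0.03 for synthetases and -0.02 for asparagine, proline and aspartate enzymes at 6 h.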
